A study of Canis lupus familiaris with 20 samples.

Results

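The genes described are the members of the transforming growth factor beta (TGF-beta), bone morphogenetic protein (BMP) and activin signalling system on a canine expression array, in muscle of dogs with and without Duchenne muscular dystrophy (DMD). They were taken by symbol: a gene belongs if its name in the scanner files begins with TGFB, BMP, GDF, INHA, INHB, ACVR, SMAD, SMURF or LTBP (leaving out LTBP4), or is MSTN, FST, FSTL1, FSTL3, NOG, GREM1, ID1, ID2, ID3, ID4, SKI, SKIL or ENG. The rule found 44 of the 10270 genes that carry a symbol, read by 53 of the 42034 probes. Of these, 21 genes (25 probes) were bright enough to test, out of 6120 tested genes with a symbol. The rule reads names alone and no measured value, but it was set with earlier results of these data known.

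The groups were 2 escaper dogs, 4 affected dogs and 4 normal dogs, all aged 2 years, sampled once each from muscle that the labels do not specify further. Affected and escaper dogs both carry the DMD label, and the name escaper is used for dystrophic dogs whose disease runs mildly. The labels name each dog, so a replicate is a separate animal; they give no sex, dystrophin mutation or treatment. Each dog was hybridised on 2 arrays, once in Cy5 and once in Cy3, against the RNA of 1 normal individual, which gave 20 arrays.

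Members of this family are secreted as dimers, many of them held latent in the matrix by binding proteins. They signal through pairs of type I and type II receptor kinases at the cell surface. TGF-beta and the activins, myostatin among their relatives, lead to phosphorylation of one branch of SMAD proteins and the BMPs to that of another, and both branches need the shared partner SMAD4 to act in the nucleus. In skeletal muscle the TGF-beta branch is known for driving fibrosis, myostatin for holding back muscle growth, and BMP signals for maintaining muscle mass and for controlling satellite cells.

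Values below are log2 ratios of a dog over the reference, averaged over the 2 arrays of the dog, and differences are between group means of these ratios. To be tested, a probe had to be well above background, in the colour of the dog, on each of the 2 arrays in 2 or more dogs. Differences were tested with limma, and p-values were adjusted by the Benjamini-Hochberg method over all 16008 tested probes, with 0.05 as the threshold. Where a gene had several tested probes, the brightest represents it. The 5 slides each held 2 dogs of 1 group, so that the escapers share a slide and slide and escaper group cannot be told apart. On the array of affected 4 in Cy5, 60.2% of probes were well above background, against 30.5% to 43.6% on the other 19 arrays. The arrays of affected 4 also agreed least with each other (r = 0.627 over tested probes, against 0.722 to 0.939 in the other dogs). FSTL1, GREM1 and INHBA each passed the brightness filter in only 2 dogs, of which affected 4 was 1. MYLPF, a myosin light chain of fast muscle fibres, was well above background on all 20 arrays.

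Each probe is a 60-base sequence, and that sequence fixes which stretch of a transcript a value reads. Shown are the probes of members to which the results return: the BMP ligand with the smallest p, the activin subunit, 2 TGF-beta ligands, the co-receptor TGFBR3, the probe nearest the 5′ end of 4 to the receptor TGFBR2, and the BMP target ID3. Positions are those of the files, for which the genome build is not given in the sources used here.
BMP4, chr8:33027719-33027778, minus strand: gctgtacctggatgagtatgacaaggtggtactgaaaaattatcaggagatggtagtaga
INHBA, chr18:11269189-11269248, plus strand: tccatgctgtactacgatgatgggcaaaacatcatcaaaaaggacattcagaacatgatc
TGFB1, chr1:115545645-115551482, plus strand: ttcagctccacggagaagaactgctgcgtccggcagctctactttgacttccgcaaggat
TGFB2, chr38:16509531-16509590, plus strand: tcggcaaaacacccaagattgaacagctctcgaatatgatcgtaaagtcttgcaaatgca
TGFBR2, chr23:16947218-16947277, minus strand: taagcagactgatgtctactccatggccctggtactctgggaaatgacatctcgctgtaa
TGFBR3, chr6:60260403-60272383, plus strand: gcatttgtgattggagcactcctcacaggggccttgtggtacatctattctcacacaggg
ID3, chr2:78773444-78773503, plus strand: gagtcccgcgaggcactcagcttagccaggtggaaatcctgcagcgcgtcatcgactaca
The TGFBR3 probe covers 11981 bp and the TGFB1 probe 5838 bp of genome although each is 60 bases long, so these probes cross introns and read spliced RNA. Among the 52 member probes with a position, 13 cross such a gap. All 52 lie on the chromosome that the RefSeq gene table gives for their gene, and the TGFBR1 probe has no position. GC content of the member probes ran between 31.7% and 73.3%, with a median of 45%, the same median as over all probes.

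No member passed the adjusted threshold in any of the 3 comparisons of the fit over dogs. The smallest adjusted p in limma was 0.191 for BMP4 between escaper and normal dogs, and over all genes with a symbol 0.00% passed in that comparison, 0.00% between escaper and affected dogs and 0.0163% between affected and normal dogs. The values were nevertheless uneven. Escaper 2 had the highest ratio of all 10 dogs in 14 of the 21 tested members, whereas it was highest in 25.5% of all tested genes. Of these 14, BMP2K, FSTL1, INHBA and TGFBR3 passed the brightness filter through dystrophic dogs alone, escaper 2 among them. Members with no normal dog well above background on both arrays were 28.6% of those tested, against 9.23% of all tested genes, so the 2 shares are not strictly alike. The median member of escaper 2 stood 0.57 above the mean of the normal dogs on the log2 scale (0.02 over all genes), while that of escaper 1 stood at −0.02 and those of the affected dogs between 0.03 and 0.12.

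**Figure D1:**
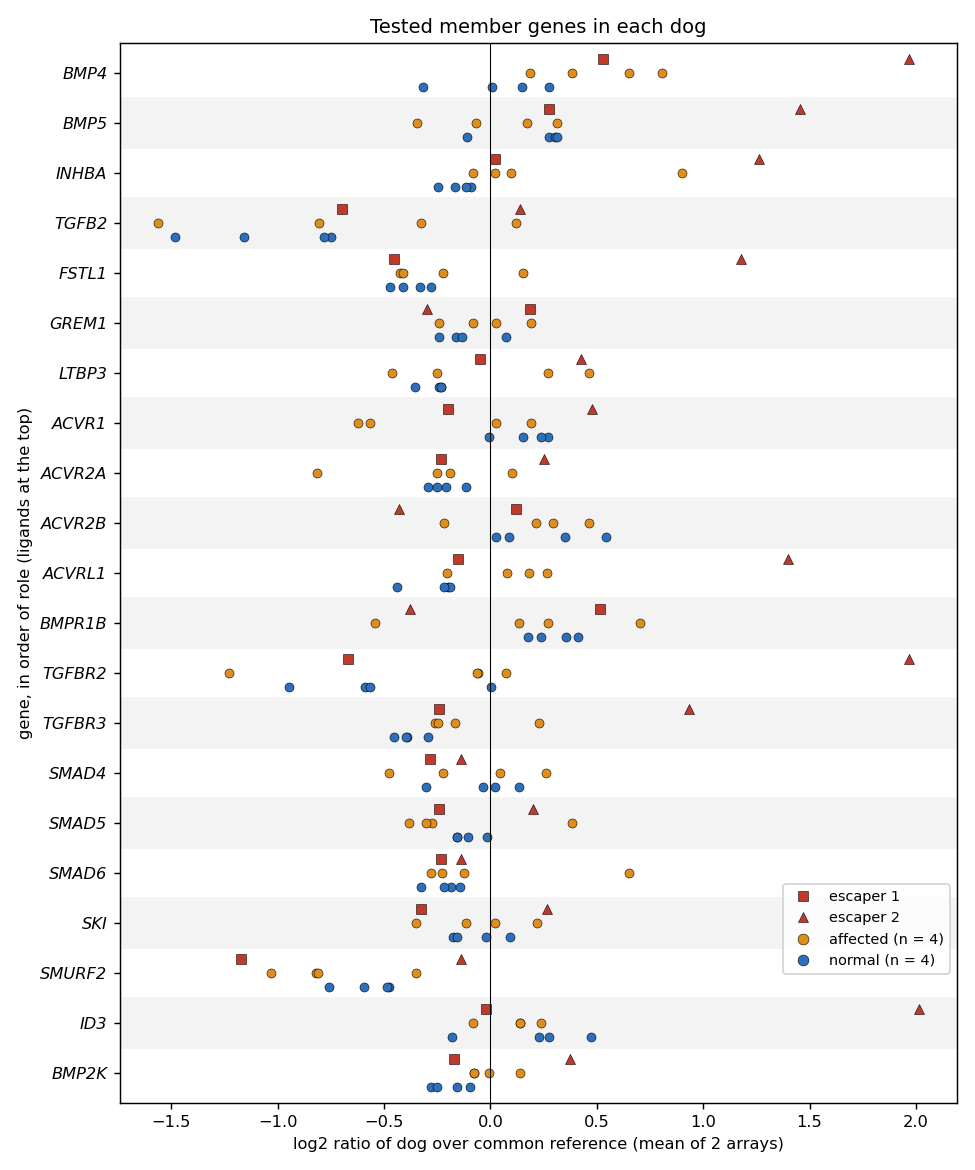
Log2 ratio of each dog over the common reference (horizontal axis) for the 21 tested member genes, ordered by role from ligands at the top; squares are escaper 1, triangles escaper 2, and circles affected (n = 4) and normal dogs (n = 4). Each point is the mean of the arrays of 1 dog, and the triangle of escaper 2 is the rightmost point in 14 of 21 genes. Among these, BMP2K, FSTL1, INHBA and TGFBR3 passed the brightness filter through dystrophic dogs alone.

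Of the ligands, 4 were tested, namely BMP4, BMP5, TGFB2 and INHBA. BMP4, a ligand of the BMP branch, had ratios of 0.53 and 1.97 in escapers 1 and 2, 0.18, 0.38, 0.81 and 0.65 in affected 1 to 4 and −0.32, 0.15, 0.28 and 0.0068 in normal 1 to 4. Both escapers lay above every normal dog, whereas affected and normal dogs overlapped. The difference was 1.22 ± 0.36 (SE) between escapers and normal dogs (95% interval 0.42 to 2.02, adjusted p = 0.191 in limma), 0.74 ± 0.36 between escapers and affected dogs (adjusted p = 0.800) and 0.48 ± 0.29 between affected and normal dogs (adjusted p = 0.531). In escaper 2 the Cy5 and Cy3 arrays gave 2.09 and 1.84, and in escaper 1 they gave 0.73 and 0.33, so the gap between the escapers exceeded that between arrays of a dog. With the 20 arrays as samples, the dog as a random block and a dye term, BMP4 passed the threshold between escapers and normal dogs (adjusted p = 0.0182 in limma). So did 7.03% of genes with a symbol. That fit gives all probes the same correlation between arrays of a dog (0.654). Where dogs of a group differ more than this allows, as the escapers may in BMP4, its p is too small.

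BMP5, another ligand of the BMP branch, was at 0.27 and 1.45 in the escapers, −0.35, −0.07, 0.17 and 0.31 in the affected dogs and 0.28, −0.11, 0.31 and 0.31 in the normal dogs. Escaper 1 lay inside the range of both other groups and escaper 2 above all dogs. The difference between escapers and affected dogs, 0.85 ± 0.31 (SE), had the smallest unadjusted p of the members in that comparison, 0.0224, with an adjusted p of 0.800 in limma. BMP5 and BMP4 thus each had their highest value in the same escaper.

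TGFB2, 1 of 3 TGF-beta isoforms, had ratios of −0.70 and 0.14 in the escapers, −1.56, −0.81, −0.33 and 0.12 in the affected dogs and −1.16, −0.75, −0.78 and −1.48 in the normal dogs. Both escapers were above the highest normal dog, escaper 1 by a small margin, while the affected dogs reached from below the lowest normal dog to near escaper 2. The escaper difference from normal dogs was 0.76 ± 0.44 (SE, adjusted p = 0.363 in limma), that from affected dogs 0.36 ± 0.44 (adjusted p = 0.868), and the affected difference from normal dogs 0.40 ± 0.36 (adjusted p = 0.658). Its SD of 0.72 among affected dogs was the highest of the members in that group.

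INHBA, the subunit that forms activin A, had ratios of 0.02 and 1.26 in the escapers, −0.08, 0.02, 0.09 and 0.90 in the affected dogs and −0.09, −0.12, −0.17 and −0.25 in the normal dogs. All 6 dystrophic dogs lay above all 4 normal dogs, by little in most, with escaper 2 and affected 4 far out. It passed background well on 2 of 4 escaper arrays (those of escaper 2), on 2 of 8 affected arrays (those of affected 4) and on 0 of 8 normal arrays. A fold of channel means against normal dogs is thus a lower bound only with the dim dystrophic arrays taken as measured, and holds for no single dog. On that footing it was at least 1.8-fold in escapers (channel means 8.25 against 7.41 log2 units) and at least 1.4-fold in affected dogs (7.89 against 7.41). Channel means are not set against the reference and were not tested. The tested ratios to the reference gave 1.74-fold in escapers (adjusted p = 0.266 in limma) and 1.31-fold in affected dogs (adjusted p = 0.596). As a group, the 4 ligands had a median difference of 0.78 between escapers and normal dogs (all 4 positive), 0.57 between escapers and affected dogs (all 4 positive) and 0.39 between affected and normal dogs (3 of 4 positive), against 0.0046, −0.03 and 0.05 over all tested genes. Escaper 2 was the highest dog for each of the 4, and INHBA passed the brightness filter through escaper 2 and affected 4 alone. These medians describe the 4 genes and are no test of ligands as a class.

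Extracellular regulators gave 3 tested genes. FSTL1, a secreted follistatin-like glycoprotein, was at −0.45 and 1.18 in the escapers, −0.43, −0.41, −0.22 and 0.15 in the affected dogs and −0.33, −0.47, −0.41 and −0.28 in the normal dogs. Escaper 2 stood alone above the others, and escaper 1 lay among the lowest. Its tested probe was well above background on both arrays of escaper 2 and of affected 4 and on no other. A second, untested probe was so on both arrays of escaper 2, 1 of affected 2 and 1 of affected 4. With the dim dystrophic arrays taken as measured, channel means against normal dogs were at least 1.62-fold in escapers (8.27 against 7.58) and at least 1.04-fold in affected dogs (7.63 against 7.58). The tested ratios to the reference gave 1.67-fold in escapers (adjusted p = 0.309 in limma) and 1.11-fold in affected dogs (adjusted p = 0.861).

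LTBP3, which binds latent TGF-beta in the matrix, had ratios of −0.05 and 0.42 in the escapers, −0.46, 0.27, −0.25 and 0.46 in the affected dogs and −0.23, −0.35, −0.24 and −0.23 in the normal dogs. The normal dogs lay close together (SD 0.06, the lowest of the members), the escapers above them and the affected dogs on either side. The escaper difference from normal dogs was 0.45 ± 0.26 (SE, adjusted p = 0.366 in limma), and a dimmer second probe of LTBP3 gave 0.23 (adjusted p = 0.65). GREM1, a secreted BMP antagonist, spanned −0.30 to 0.18 in the escapers, −0.24 to 0.19 in the affected dogs and −0.24 to 0.07 in the normal dogs. Its differences were 0.06 between escapers and normal dogs, −0.03 between escapers and affected dogs and 0.09 between affected and normal dogs, and the groups overlapped throughout. In GREM1 it was escaper 2 that had the lowest ratio of all dogs.

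Receptors were the best represented class, with 7 tested genes. TGFBR2 is the type II receptor through which TGF-beta enters the pathway. Its brightest probe had ratios of −0.67 and 1.97 in the escapers, −0.06, −1.23, −0.06 and 0.07 in the affected dogs and 0.0034, −0.95, −0.59 and −0.57 in the normal dogs. Escaper 2 stood far above the rest, escaper 1 lay below all but 2 dogs, and affected and normal dogs covered the same range. The escaper difference was 1.17 ± 0.64 (SE) from normal dogs (adjusted p = 0.341 in limma) and 0.97 ± 0.64 from affected dogs (adjusted p = 0.800), and affected dogs differed from normal dogs by 0.21 ± 0.52 (adjusted p = 0.888). The value of escaper 2 rests on its Cy3 array alone because the Cy5 spot carried an outlier flag, as did single spots of affected 1 and normal 2.

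TGFBR2 was the only member with 4 tested probes, which lie in order along chr23 between 16928781 and 16947277 on the minus strand. Counted from the 3′ end, they gave escaper 2 ratios of 1.97, 1.45, 0.62 and 0.15, and escaper 1 ratios of −0.67, −1.25, −0.61 and −0.42. Escaper 2 was above all other dogs at each probe, by an amount that was smaller at each step toward the 5′ end. The probes also differ in brightness, with mean log2 intensities of 12.3, 12.3, 8.79 and 8.21, and what sets their difference was not tested. The escaper difference from normal dogs was accordingly 1.17, 0.92, 0.26 and 0.11 at the 4 probes (adjusted p between 0.341 and 0.804 in limma), and that of affected from normal dogs 0.21, 0.07, −0.16 and −0.04.

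**Figure D2:**
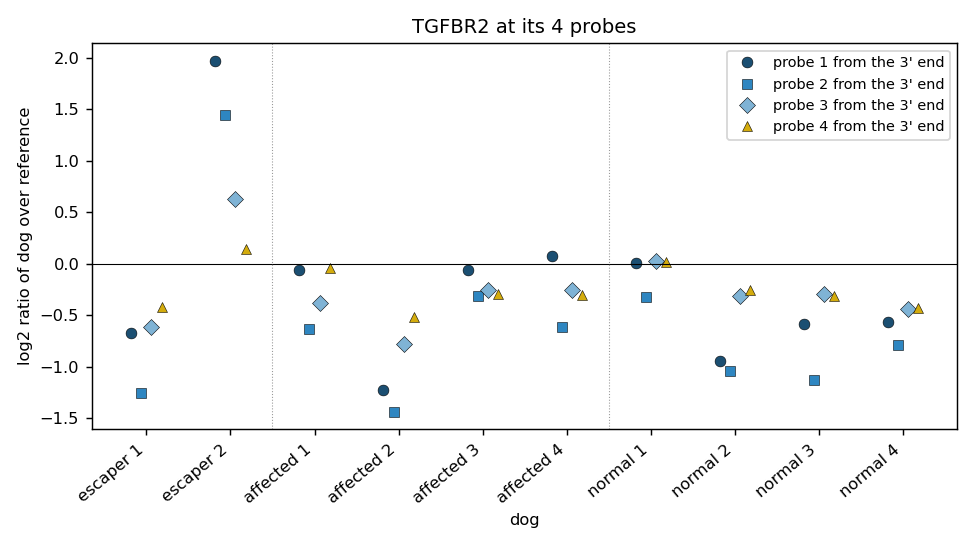
Log2 ratio over the reference (vertical axis) at the 4 tested TGFBR2 probes in each dog, escapers left, affected dogs in the middle and normal dogs right; probes are counted from the 3′ end of the gene. Escaper 2 runs between 1.97 and 0.15 across the probes and is the highest dog at each.

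TGFBR3, or betaglycan, presents TGF-beta to the signalling receptors. Its ratios were −0.24 and 0.93 in the escapers, 0.23, −0.26, −0.25 and −0.17 in the affected dogs and −0.39, −0.29, −0.46 and −0.40 in the normal dogs. All dystrophic dogs lay above all normal dogs, although escaper 1 and 3 of the affected dogs did so by a narrow margin. No normal array had the probe well above background, against 3 of 4 escaper and 6 of 8 affected arrays. With the dim dystrophic arrays taken as measured, channel means were at least 1.66-fold in escapers (8.53 against 7.80) and at least 1.27-fold in affected dogs (8.15 against 7.80). The tested ratios to the reference gave 1.66-fold in escapers (adjusted p = 0.234 in limma) and 1.21-fold in affected dogs (adjusted p = 0.644).

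ACVRL1, a type I receptor used mainly by endothelial cells, had ratios of −0.15 and 1.40 in the escapers, 0.08, −0.21, 0.18 and 0.27 in the affected dogs and −0.44, −0.20, −0.19 and −0.22 in the normal dogs. Escaper 2 was set apart from every other dog and escaper 1 lay just above the highest normal dog. The escaper difference was 0.89 ± 0.35 (SE) from normal dogs (adjusted p = 0.237 in limma) and 0.54 ± 0.35 from affected dogs (adjusted p = 0.800), and the affected difference from normal dogs was 0.34 ± 0.28 (adjusted p = 0.637). The value of normal 3 comes from its Cy5 array alone.

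ACVR1, a type I receptor of the BMP branch, had a negative difference between affected and normal dogs. It was at −0.20 and 0.48 in the escapers, −0.62, −0.57, 0.03 and 0.19 in the affected dogs and 0.27, 0.24, 0.15 and −0.0073 in the normal dogs. The affected dogs formed a low pair (affected 1 and 2) and a pair inside the normal range. The arrays of affected 4 gave −0.31 in Cy5 and 0.69 in Cy3, so its place is the mean of unlike values. Normal 3 was read by its Cy5 array alone. Affected against normal dogs gave −0.41 ± 0.22 (SE), the smallest p of the members in that comparison (adjusted p = 0.485 in limma), and escapers gave 0.38 ± 0.27 against affected dogs (adjusted p = 0.809) and −0.02 ± 0.27 against normal dogs (adjusted p = 0.973).

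ACVR2A and ACVR2B are the type II receptors of the activins and myostatin. ACVR2A had ratios of −0.23 and 0.25 in the escapers, 0.10, −0.19, −0.25 and −0.81 in the affected dogs and −0.12, −0.21, −0.29 and −0.25 in the normal dogs. ACVR2B had ratios of 0.12 and −0.43 in the escapers, 0.29, 0.21, 0.46 and −0.22 in the affected dogs and 0.54, 0.09, 0.02 and 0.35 in the normal dogs. Escaper 2 was the highest dog for ACVR2A and the lowest for ACVR2B, while the groups overlapped in both genes. Escapers differed from affected dogs by 0.30 ± 0.24 (SE, adjusted p = 0.817 in limma) in ACVR2A and by −0.34 ± 0.24 (adjusted p = 0.809) in ACVR2B. Against normal dogs the escaper differences were 0.23 and −0.41 (adjusted p = 0.639 and 0.385), and those of affected dogs −0.07 and −0.06. BMPR1B, a type I BMP receptor, ranged between −0.38 and 0.52 in the escapers, −0.54 and 0.70 in the affected dogs and 0.18 and 0.41 in the normal dogs. Its differences were −0.23 between escapers and normal dogs, −0.07 between escapers and affected dogs and −0.16 between affected and normal dogs, with the lowest and highest values of all dogs both in affected animals.

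The SMAD proteins carry the signal to the nucleus, and 3 of their genes were tested. SMAD4, the shared partner of both branches, had ratios of −0.28 and −0.14 in the escapers, 0.26, −0.47, 0.05 and −0.22 in the affected dogs and 0.14, 0.02, −0.03 and −0.30 in the normal dogs. The ranges of the 3 groups overlapped, and escaper 2 did not stand apart here. The difference was −0.17 ± 0.22 (SE) between escapers and normal dogs, −0.11 ± 0.22 between escapers and affected dogs and −0.05 ± 0.18 between affected and normal dogs (adjusted p = 0.708, 0.923 and 0.919 in limma). SMAD5, which BMP receptors phosphorylate, ranged from −0.24 to 0.20 in the escapers, −0.38 to 0.38 in the affected dogs and −0.16 to −0.02 in the normal dogs. SMAD6, an inhibitor of BMP signalling, ranged from −0.23 to −0.14 in the escapers, −0.28 to 0.65 in the affected dogs and −0.33 to −0.14 in the normal dogs. Affected 1 was the highest dog for both of these genes. SMAD5 differed by 0.09, 0.12 and −0.04 and SMAD6 by 0.03, −0.19 and 0.22 in the comparisons of escaper with normal, escaper with affected and affected with normal dogs.

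Of the regulators inside the cell, SMURF2, a ubiquitin ligase that marks receptors and SMADs for degradation, ranged from −1.17 to −0.14 in the escapers, −1.03 to −0.35 in the affected dogs and −0.76 to −0.48 in the normal dogs. SKI, a corepressor of SMAD complexes, ranged from −0.33 to 0.26 in the escapers, −0.35 to 0.22 in the affected dogs and −0.18 to 0.09 in the normal dogs. For both genes escaper 2 was the highest dog, while escaper 1 was the lowest for SMURF2. The differences of SMURF2 were −0.08 between escapers and normal dogs, 0.10 between escapers and affected dogs and −0.17 between affected and normal dogs. Those of SKI were 0.04, 0.03 and 0.01 in the same order.

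ID3, an inhibitor of helix-loop-helix factors and a direct target of BMP signalling, had ratios of −0.02 and 2.02 in the escapers, 0.14, −0.08, 0.24 and 0.14 in the affected dogs and −0.18, 0.47, 0.23 and 0.28 in the normal dogs. All 9 dogs other than escaper 2 lay between −0.18 and 0.47, and escaper 2 reached 1.90 in Cy5 and 2.13 in Cy3. The escaper difference was 0.89 ± 0.44 (SE) from affected dogs (adjusted p = 0.800 in limma) and 0.80 ± 0.44 from normal dogs (adjusted p = 0.353), and affected dogs differed from normal dogs by −0.09 ± 0.36 (adjusted p = 0.932). BMP2K, a kinase named for its induction by a BMP in mouse cells and neither ligand nor receptor, was at −0.17 and 0.37 in the escapers, −0.08, 0.14, −0.009 and −0.08 in the affected dogs and −0.10, −0.28, −0.16 and −0.25 in the normal dogs. Each affected dog was higher than each normal dog by a narrow margin, with escaper 1 inside the normal range. BMP2K differed by 0.19 ± 0.14 (SE) between affected and normal dogs (adjusted p = 0.602 in limma) and by 0.30 ± 0.17 between escapers and normal dogs (adjusted p = 0.374).

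Over the 21 tested members, affected dogs differed from normal dogs by a median of 0.09 (12 positive and 9 negative, 0.05 over all tested genes). In 0 of 21 members was the unadjusted p in limma under 0.05, where 13.0% of all tested genes were, and in 3 (BMP2K, INHBA and TGFBR3) every affected dog was above every normal dog, where 6.13% of genes did. These 3 are among 6 members (with FSTL1, GREM1 and SMAD5) for which no normal dog was well above background on both arrays, against 9.23% of all tested genes. They passed the brightness filter through dystrophic dogs alone. The filter favours such genes, so the count of 3 is not read as a result about the members. Escapers differed from normal dogs by a median of 0.30 (16 positive and 5 negative, 0.0046 over all genes). There, 4 members (BMP4, TGFBR3, ACVRL1 and INHBA) had an unadjusted p under 0.05 with the escapers higher, where 9.82% of genes did, and 6 (the same 4 with LTBP3 and TGFB2) had both escapers above all normal dogs, where 14.6% of genes did. TGFBR3 and INHBA in both counts passed the filter through dystrophic dogs alone. Against affected dogs the escaper median was also 0.30 (16 positive and 5 negative, −0.03 over all genes), with BMP5 alone at an unadjusted p under 0.05 and higher in escapers (3.06% of genes) and no member free of overlap (8.01% of genes in either direction). The 3 comparisons share groups, so their counts are not independent of each other. The medians moved with the processing. Between escapers and normal dogs the median was 0.63 with the processed signals of the scanner files and 0.13 over members well above background in all 10 dogs. Between escapers and affected dogs it was 0.09 with median centring in place of loess. Between affected and normal dogs it was 0.21 with the processed signals, 0.03 from the Cy3 arrays alone, 0.02 with the probes of a gene averaged and −0.06 over members well above background in all 10 dogs.

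**Figure D3:**
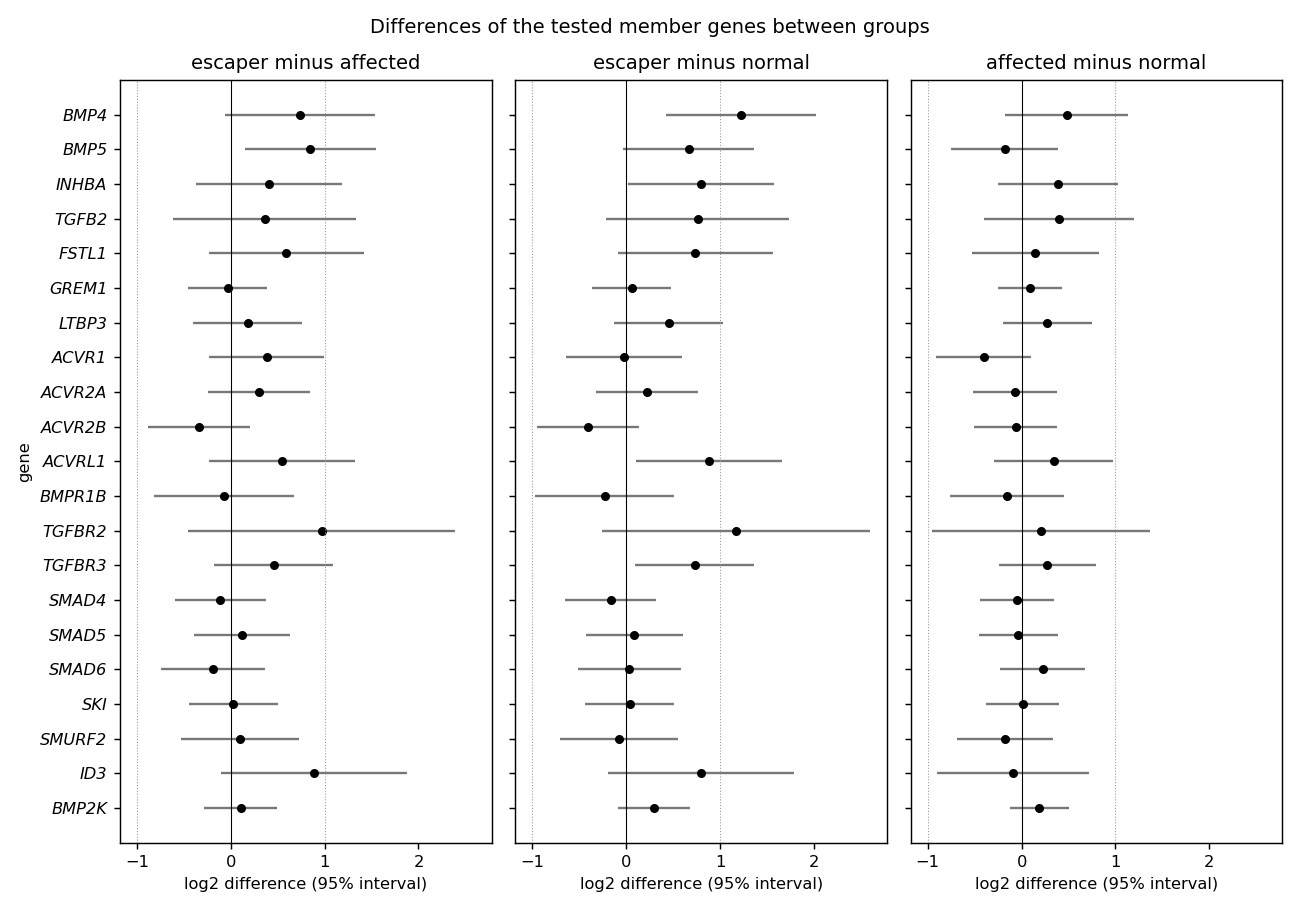
Log2 difference with its 95% interval from limma (horizontal axis) for the 21 tested member genes in the comparisons escaper minus affected, escaper minus normal and affected minus normal; dotted lines mark a 2-fold difference in either direction. Intervals of BMP4, ACVRL1, TGFBR3 and INHBA lie above 0 between escapers and normal dogs, and BMP5 alone between escapers and affected dogs.

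The size of difference that the data leave possible varied with the comparison. Between affected and normal dogs the 95% interval lay within a 2-fold difference in 17 of 21 members, the others being BMP4, INHBA, TGFB2 and TGFBR2, and it did so in 72.3% of all tested genes. With 2 escapers the intervals were wider, and 11 of 21 members against normal dogs and 12 of 21 against affected dogs lay within 2-fold, where 56.4% and 63.4% of all tested genes did. The members whose interval went further did so upward, 4 between affected and normal dogs, 10 between escapers and normal dogs and 9 between escapers and affected dogs. Over all tested genes, intervals reached past 2-fold upward in 1022 and downward in 761 between affected and normal dogs, in 1448 and 1369 between escapers and normal dogs and in 1178 and 1333 between escapers and affected dogs.

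The escaper means average dogs that differed from each other. The median SD of a member was 0.59 in escapers (0.34 over all genes), 0.29 in affected dogs (0.32) and 0.13 in normal dogs (0.17). Without escaper 2, the median member difference was −0.02 against normal dogs and −0.13 against affected dogs, with 10 and 6 of 21 positive and 0 members past the adjusted threshold (0.0163% of genes in each). Without escaper 1, the medians were 0.57 and 0.61, and 9 members passed against normal dogs (26.3% of genes) and 7 against affected dogs (12.3% of genes), in a fit where escaper 2 is the lone escaper and takes its spread from the other groups. Those past the threshold in both were ACVRL1, BMP4, BMP5, FSTL1, ID3, TGFBR2 and TGFBR3, joined against normal dogs by BMP2K and INHBA. What escaper 1 shared with escaper 2 was a ratio above all normal dogs in ACVRL1, BMP4, INHBA, LTBP3, TGFB2 and TGFBR3. Escaper 2 had ratios above all normal dogs in 17 of 21 members (41.5% of genes) and escaper 1 in 8 (23% of genes). Among the 17, BMP2K, FSTL1, INHBA, SMAD5 and TGFBR3 passed the brightness filter through dystrophic dogs alone, as did GREM1, INHBA and TGFBR3 among the 8.

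The remaining 23 members were too dim to test, among them the ligands most studied in muscle. The probe of TGFB1, the TGF-beta isoform most tied to fibrosis, was well above background on both arrays of escaper 2, on 1 array of affected 1 and on no normal array. MSTN, which encodes myostatin, was well above background on both arrays of normal 1 and on no array of an escaper or affected dog. For MSTN the channel means were 7.40 in escapers, 7.40 in affected dogs and 7.71 in normal dogs. With the dim normal arrays taken as measured, the normal mean was at least 1.24-fold that of escapers and at least 1.22-fold that of affected dogs. These folds rest on 1 normal dog and have no test. GDF15, a stress-induced relative of the family, came nearest to being tested, with 2 of 4 escaper arrays, 5 of 8 affected arrays and 2 of 8 normal arrays. TGFB1I1, a focal adhesion protein, followed with 3 of 4 escaper arrays, 2 of 8 affected arrays and 0 of 8 normal arrays.

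BMPER, a secreted BMP modulator, SKIL, a SMAD corepressor, and TGFBI, a matrix protein induced by TGF-beta, each stood above background on both arrays of escaper 2 and on 1 array of affected 4. BMPR1A, a type I BMP receptor, did so on 1 affected and 2 normal arrays. GDF5, INHA and TGFB3, all ligand genes, did so on 1 affected and 1 normal array each. SMAD9, of the BMP branch, did so on the 2 arrays of affected 1, SMAD2, of the TGF-beta branch, on 1 array of escaper 2, and SMAD1, of the BMP branch, on 1 array of normal 2. BMP7, LTBP2, SMAD7 and TGFBR1, which encode a ligand, a latent TGF-beta binding protein, an inhibitory SMAD and the type I TGF-beta receptor, were above background only on the Cy5 array of affected 4, the array with the most bright probes of the 20. ACVR1C, BMP15, GDF3, GDF9 and TGFBRAP1 were above background on no array. A dim probe bounds the level from above only loosely, and does not show that the gene is silent.

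**Figure D4:**
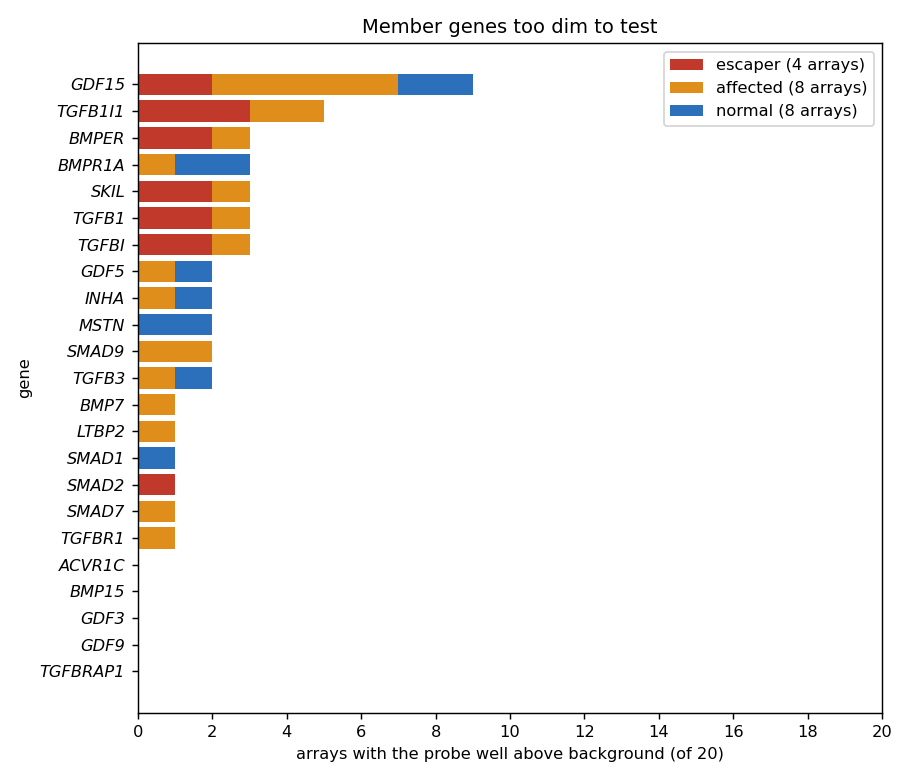
Number of arrays, of 20, on which the best probe of each of the 23 untested member genes was well above background (bar length), stacked by group as escaper (4 arrays), affected (8 arrays) and normal (8 arrays). GDF15 reached 9 arrays and 5 genes reached none.

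Other genes that act on the pathway were described from lists. Of 17 tested regulators on the ligand side that are no members, 0 passed the adjusted threshold in any comparison, and the median differences were 0.27 between escapers and normal dogs (12 of 17 positive), 0.26 between escapers and affected dogs (12 of 17) and 0.09 between affected and normal dogs (11 of 17). CD109, a co-receptor that dampens TGF-beta signalling, differed by 2.32 between escapers and normal dogs (adjusted p = 0.205 in limma) and by 2.29 between affected and normal dogs (adjusted p = 0.255). CHRDL1, a BMP antagonist, differed by −1.19 between affected and normal dogs (adjusted p = 0.289) and by 1.13 between escapers and affected dogs (adjusted p = 0.80), and its relative CHRDL2 by 2.95 between escapers and normal dogs (adjusted p = 0.205). Of 25 tested regulators inside the cell, 0 passed, with medians of −0.13, −0.08 and 0.02 in the comparisons of escaper with normal, escaper with affected and affected with normal dogs. WWP1, a ubiquitin ligase, differed by −1.41 between escapers and normal dogs (adjusted p = 0.189) and by −1.34 between affected and normal dogs (adjusted p = 0.182). USP15, a deubiquitinase that acts on the TGF-beta receptor, differed by −1.01 between escapers and normal dogs (adjusted p = 0.189).

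Genes that TGF-beta is known to induce were measured by 18 tested probes. None passed the adjusted threshold, and the median differences were 0.90 between escapers and normal dogs (16 of 18 positive), 0.79 between escapers and affected dogs (15 of 18) and 0.26 between affected and normal dogs (14 of 18). The collagen genes COL1A2 and COL3A1 differed by 3.43 and 3.71 between escapers and normal dogs (adjusted p = 0.201 and 0.202 in limma) and by 1.74 and 1.88 between affected and normal dogs (adjusted p = 0.453 and 0.47). The mean ratio of the 18 genes was −0.72 in escaper 1 and 1.04 in escaper 2, between −0.83 and 0.14 in affected dogs and between −1.19 and −0.77 in normal dogs. The lists share genes: COL1A1, COL1A2 and COL3A1 are also fibroblast markers below and TAGLN a smooth muscle marker. ITGB5 and PMEPA1 are also among the regulators above, and DCN is both a ligand-side regulator and a fibroblast marker. Of BMP target genes, 4 were tested, with ID3 and SMAD6 among them, and besides these HAMP and MSX2 differed by at most 0.19 in size in any comparison. The BMP target mean was −0.04 in escaper 1 and 0.58 in escaper 2, against ranges of 0.02 to 0.21 in affected dogs and −0.11 to 0.08 in normal dogs. In escaper 2, ID3 was at 2.02 and SMAD6 at −0.14, so most of that mean comes from ID3, a member described above.

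Markers of several other cell types were, like the members, highest in escaper 2. In whole muscle, more cells of a type and more RNA per cell cannot be told apart. The mean of 15 tested fibroblast markers was −0.15 in escaper 1 and 1.95 in escaper 2, −0.84 to 0.88 in affected dogs and −1.08 to −0.60 in normal dogs. That of 13 macrophage markers was −1.23 in escaper 1 and 1.13 in escaper 2, −1.28 to −0.15 in affected dogs and −1.74 to −1.38 in normal dogs. Endothelial markers, of which 8 were tested, averaged −0.22 in escaper 1 and 0.92 in escaper 2, −0.44 to −0.09 in affected dogs and −0.17 to 0.10 in normal dogs. The 7 smooth muscle and pericyte markers averaged 0.22 in escaper 1 and 0.54 in escaper 2 (−0.24 to 0.01 in affected and 0.10 to 0.26 in normal dogs), and the 8 adipocyte markers 0.04 and 0.50 (−0.05 to 0.27 in affected and −0.34 to −0.09 in normal dogs). Markers of regenerating fibres and satellite cells, 10 of them, averaged −0.48 in escaper 1 and −0.04 in escaper 2, −1.71 to −0.02 in affected dogs and −2.02 to −1.74 in normal dogs, and the only T and NK cell marker tested, NKG7, was at 0.70 in escaper 1 and −1.33 in escaper 2, −2.40 to 0.30 in affected dogs and 0.48 to 1.18 in normal dogs. NKG7 was saturated on 6 of 20 arrays, and DES and MYH8 among the regeneration markers on 9 and 3. The 8 adult muscle fibre markers averaged 0.72 in escaper 1 and −1.68 in escaper 2, −1.70 to 0.56 in affected dogs and 0.54 to 0.79 in normal dogs. Of these 8 probes, 5 were saturated on some of the 20 arrays (MYLPF on 18, TNNI2 on 17, TNNT3 on 11, TTN on 3 and ATP2A1 on 1), so their ratios, taken at the values of the files, are inexact. No gene of these lists passed the adjusted threshold in any comparison of the fit, and their part in the member values was not tested. Against normal dogs the escaper median was 1.69 over fibroblast markers (14 of 15 positive), 1.5 over macrophage markers (13 of 13), 0.32 over endothelial markers (8 of 8) and −1.33 over adult fibre markers (2 of 8).

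**Figure D5:**
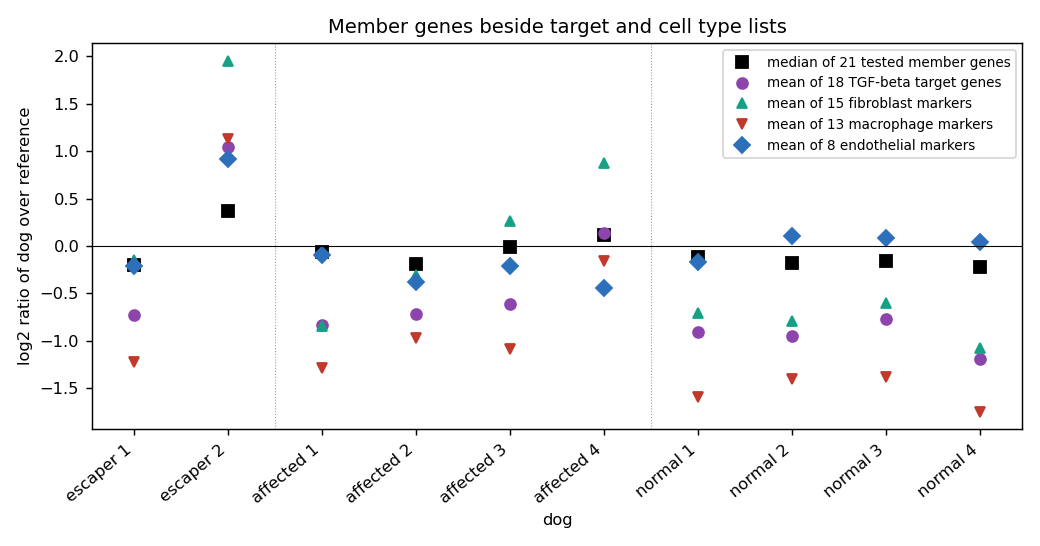
Median log2 ratio of the 21 tested member genes (black squares) and mean log2 ratio of the tested genes of 4 lists (coloured points) in each dog (horizontal axis), escapers left, affected dogs in the middle and normal dogs right. Escaper 2 is the highest dog in the member median and in each of the 4 lists, with a fibroblast marker mean of 1.95. The TGF-beta target and fibroblast lists share COL1A1, COL1A2 and COL3A1.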

How the data were processed

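Muscle RNA of 2 escaper, 4 affected and 4 normal dogs was labelled in 2 colours on canine Agilent arrays against a common reference, with a dye swap per dog, per the labels' protocols. Per the file headers, Agilent Feature Extraction 9.5.3.1 gave the deposited intensity values, a mean and a local background per spot. A deposited table of log2 values matched the processed ratio, dog over reference, of each array (r = 1), was not centred, and served as an alternative. Here, 42034 probes were background-corrected with normexp (offset 50) and loess-normalised within arrays in limma 3.58.1 (R 4.3.3). Control spots and spots with outlier flags were left out, and dye-swapped ratios were turned. The 2 arrays of a dog were averaged, so that n counts dogs, and 1 limma fit held all 3 groups (two-sided, 7 residual degrees of freedom). Intervals are 95%. Of 16130 probes that passed the brightness filter, 16008 had an unflagged spot in every dog. Precision is limited by the number of dogs. Symbols are those of the files, updated through the RefSeq gene table of UU_Cfam_GSD_1.0; 12151 probes have a symbol, and for 11304 of these probes that table holds the symbol. Named with the value of every dog are the 6 members with the smallest p per comparison and a list of core pathway genes; other tested members are named with their differences and untested members with their array counts. Of each list, up to 3 tested genes with the smallest p were eligible to be named. The members, roles and gene lists were chosen with earlier results of these data known, so counts over them are descriptions. The fit was tested on simulated data. Alternatives were the processed signals, median centring, no or a stricter brightness filter, slide or dog as a random block, each dye alone, a trended robust variance, the mean of a gene's probes, the 2 compared groups alone, and leaving out each dog.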

Additional observations from a re-analysis of the deposited data

Results flagged for a closer look

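In 6 of 42 sets of 4 dogs (21 members in 2 groups), 1 dog lay far from the other 3 by Dixon's criterion, which chance meets in about 1 of 20 sets. Among affected dogs, TGFBR2 was at −1.23 in affected 2, with the next dog at −0.06. SMAD5 was at 0.38 and SMAD6 at 0.65 in affected 1, with the next dogs at −0.28 and −0.12. Among normal dogs, ACVRL1 was at −0.44 in normal 1 (next −0.22), BMP5 at −0.11 in normal 2 (next 0.28) and LTBP3 at −0.35 in normal 2 (next −0.24). The escaper group of 2 dogs is too small for this criterion.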

How the results depend on the processing

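Of the 426 member differences recomputed under the alternatives in each comparison, 406 kept their direction and their side of the adjusted threshold between affected and normal dogs, 393 between escapers and normal dogs and 389 between escapers and affected dogs. Median member differences depended on escaper 2: leaving out each dog in turn gave −0.015 to 0.57 between escapers and normal dogs, −0.13 to 0.61 between escapers and affected dogs and 0.062 to 0.12 between affected and normal dogs. Members past the adjusted threshold then numbered 0 to 9, 0 to 7 and 0 in these comparisons, and members at an unadjusted p under 0.05 in limma numbered 1 to 10, 0 to 10 and 0 to 2. Both upper ends in the escaper comparisons come from the fit without escaper 1. Treating the 20 arrays as samples with the dog as a random block and a dye term put 1 member past the threshold between escapers and normal dogs (BMP4, adjusted p = 0.0182 in limma, where 7.03% of genes passed). That fit holds 1 correlation for all probes (0.654) and can understate the spread between dogs in a single gene. With the slide as a random block (estimated correlation −0.271) 8 members reached an unadjusted p under 0.05 between escapers and normal dogs and 3 between escapers and affected dogs. The median member difference stayed at 0.30 in both comparisons. Each slide held dogs of 1 group and the escapers share 1 slide, so that fit cannot tell slide from group. A negative correlation also makes the error of a slide mean smaller, so these counts are not read as a result about the members. The processed signals gave a median of 0.63 between escapers and normal dogs. Median centring gave a median of 0.093 between escapers and affected dogs. Keeping only probes well above background in all 10 dogs gave a median of −0.058 between affected and normal dogs. Fewer genes are tested there. Between escapers and affected dogs the median was 0.22 with the Cy5 arrays alone and 0.29 with the Cy3 arrays alone. A fit of only the 2 groups compared put 113, 0 and 0 probes of the whole array past the adjusted threshold (3, 0 and 0 with all groups). These are the comparisons of affected with normal, escaper with normal and escaper with affected dogs. With the processed signals of the scanner files, the sign turned in escapers against normal dogs SKI (−0.23) and SMURF2 (0.17), in escapers against affected dogs HAMP (−0.059), MSX2 (0.10) and SKI (−0.12), in affected against normal dogs ACVR2A (0.0004), SKI (−0.11), SMAD5 (0.071) and SMURF2 (0.078). With median centring in place of loess, the sign turned in escapers against normal dogs SMAD5 (−0.011) and SMAD6 (−0.22), in escapers against affected dogs HAMP (−0.11), NKG7 (−0.16), MYLPF (−0.097), LTBP3 (−0.028), SKI (−0.064), SMAD5 (−0.0032) and SMURF2 (−0.063). From the Cy5 arrays of the dogs alone, the sign turned in escapers against normal dogs HAMP (0.10), SMAD5 (−0.095) and SMAD6 (−0.014), in escapers against affected dogs MSX2 (0.17), SMAD5 (−0.019) and SMURF2 (−0.12), in affected against normal dogs HAMP (0.0018). From the Cy3 arrays of the dogs alone, the sign turned in escapers against normal dogs GREM1 (−0.0025) and SMURF2 (0.074), in escapers against affected dogs HAMP (−0.059), BMP2K (−0.041), BMPR1B (0.019), GREM1 (0.064) and SKI (−0.0044), in affected against normal dogs GREM1 (−0.066), SMAD4 (0.051) and SMAD5 (0.0065). Leaving out each dog in turn turned the sign of the following differences at least once, given as the lowest and highest value: between escapers and normal dogs ACVR1 (−0.36 to 0.31), ACVR2A (−0.015 to 0.47), BMPR1B (−0.68 to 0.22), FSTL1 (−0.078 to 1.55), GREM1 (−0.18 to 0.30), HAMP (−0.25 to 0.20), ID3 (−0.22 to 1.82), SKI (−0.26 to 0.33), SMAD5 (−0.13 to 0.31), SMAD6 (−0.015 to 0.081), SMURF2 (−0.59 to 0.44) and TGFBR2 (−0.15 to 2.49). Between escapers and affected dogs the same was seen in ACVRL1 (−0.23 to 1.32), BMP2K (−0.17 to 0.38), BMPR1B (−0.52 to 0.38), FSTL1 (−0.22 to 1.41), GREM1 (−0.27 to 0.21), HAMP (−0.20 to 0.24), ID3 (−0.13 to 1.91), IGFBP7 (−0.069 to 2.98), INHBA (−0.21 to 1.03), LTBP3 (−0.054 to 0.42), MSX2 (−0.11 to 0.067), NKG7 (−0.60 to 1.43), SKI (−0.27 to 0.32), SMAD4 (−0.24 to 0.0064), SMAD5 (−0.096 to 0.34), SMAD6 (−0.28 to 0.025), SMURF2 (−0.42 to 0.61), TGFB2 (−0.055 to 0.78), TGFBR2 (−0.35 to 2.29) and TGFBR3 (−0.13 to 1.04). Between affected and normal dogs it was seen in ACVR2A (−0.20 to 0.10), ACVR2B (−0.16 to 0.071), BMPR1B (−0.34 to 0.072), HAMP (−0.099 to 0.020), SKI (−0.081 to 0.11), SMAD4 (−0.17 to 0.073) and SMAD5 (−0.21 to 0.045). The cause of these changes was not tested. No paired analysis was possible because the replicate numbers were given in accession order and pair no dogs. With 2 escapers on 1 slide and 23 of 44 members too dim to test, signal over background limits what can be said of the ligands and SMADs.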
